A study of Mus musculus with 416 samples.

Results

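A set of 728 genomic bins of 50 kb was replicated relatively earlier in siRif1 than in siCont morulae, but not in siRif1 embryos of the 8-cell stage. These morula-advanced bins were 1.58% of the 46015 bins in use and covered 36.4 Mb of the 19 mouse autosomes, with positions given in build GRCm38. The bins were chosen from the readout itself. For each bin and group, the replicated share is the number of cells with the bin replicated over the number of cells in which it was measured, as a percent. Subtracting the group's mean over the bins in use gave a centred share. A shift, in percentage points, is the difference between treatments in centred share, siRif1 minus siCont, at 1 stage. A bin entered the set if its shift was at least 20 points at the morula stage and at most 5 points at the 8-cell stage. Because all 4 morula and 8-cell groups were used in the choice, their values in these bins are a description. The 4-cell groups were not used in it.

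The cells were single blastomeres of (C57BL/6J xCBA) x DBA/2J embryos. Zygotes had been injected with 20 µM of an siRNA against Rif1 (siRif1) or of a control siRNA (siCont) at 17 to 18 hours after hCG and cultured on. Tables held 51 siRif1 and 49 siCont cells of the 4-cell stage, 50 siRif1 and 60 siCont cells of the 8-cell stage, and 45 siRif1 and 44 siCont cells of the morula stage. The labels assign no cell to an embryo or batch, so a group is 1 sample, differences carry no p-value, and intervals cover counting error only. Rif1 RNA and protein were not measured in these files, so the degree of depletion was not checked here. Mean replicated shares over the bins in use were 50.5% in siRif1 and 46.5% in siCont at the 4-cell stage, 43% and 49.2% at the 8-cell stage, and 49.98% and 49.4% at the morula stage. The morula-advanced bins were well measured, with 42 to 45 cells at the morula stage and 48 to 60 cells at the earlier stages behind each share.

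Replication timing is the order in which parts of the genome are copied during S phase. Gene-rich, transcribed DNA tends to be copied early, and gene-poor DNA, much of it near the nuclear lamina, tends to be copied late. RIF1 is a chromatin protein that recruits protein phosphatase 1, which counteracts the kinase that triggers origin firing. In cultured mammalian cells RIF1 is enriched on late-replicating DNA, and its loss is known to disturb the timing programme.

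Most of the morula-advanced DNA held no annotated promoter. The promoters that did lie in it held 0 to 55 CpG (55 in Ube2e2), and 5 are shown because their domains or bins are described below. They belong to Btbd3, Gucy1b1, Asic5 and Chmp2b, which lie in 3 of the 10 longest domains, and to Vmn1r179 in the bin with the highest morula shift. Sequences are from RefSeq, build GRCm38.p6, read 5′ to 3′ on the gene's strand from 250 bases before to 50 bases after the transcription start. Capitals mark CpG dinucleotides.
Btbd3, chr2:138256334-138256633, strand +: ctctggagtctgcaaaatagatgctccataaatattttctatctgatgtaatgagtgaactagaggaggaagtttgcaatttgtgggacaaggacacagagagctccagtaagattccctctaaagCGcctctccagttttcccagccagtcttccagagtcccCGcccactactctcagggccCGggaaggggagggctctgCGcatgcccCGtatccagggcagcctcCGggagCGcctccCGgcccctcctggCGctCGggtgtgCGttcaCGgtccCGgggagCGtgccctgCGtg
Gucy1b1, chr3:82074662-82074961, strand -: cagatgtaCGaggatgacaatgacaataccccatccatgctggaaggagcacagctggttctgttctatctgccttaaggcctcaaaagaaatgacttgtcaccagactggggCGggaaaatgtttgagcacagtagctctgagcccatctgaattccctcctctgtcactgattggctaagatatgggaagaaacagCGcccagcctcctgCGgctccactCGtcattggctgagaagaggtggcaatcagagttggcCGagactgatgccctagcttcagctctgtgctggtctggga
Asic5, chr3:81996672-81996971, strand +: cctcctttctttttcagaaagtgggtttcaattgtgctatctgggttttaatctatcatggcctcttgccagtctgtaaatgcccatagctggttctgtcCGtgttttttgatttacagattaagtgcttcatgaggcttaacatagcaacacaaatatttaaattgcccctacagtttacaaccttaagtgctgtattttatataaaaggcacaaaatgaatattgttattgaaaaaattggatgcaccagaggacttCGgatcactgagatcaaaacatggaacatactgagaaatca
Chmp2b, chr16:65562713-65563012, strand -: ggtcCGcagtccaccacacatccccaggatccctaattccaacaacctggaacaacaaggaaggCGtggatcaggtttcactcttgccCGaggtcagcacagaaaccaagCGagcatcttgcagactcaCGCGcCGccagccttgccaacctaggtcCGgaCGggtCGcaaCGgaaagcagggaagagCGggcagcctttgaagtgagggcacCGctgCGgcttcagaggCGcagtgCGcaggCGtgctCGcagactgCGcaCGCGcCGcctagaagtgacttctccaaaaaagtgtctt
Vmn1r179, chr7:23928136-23928435, strand +: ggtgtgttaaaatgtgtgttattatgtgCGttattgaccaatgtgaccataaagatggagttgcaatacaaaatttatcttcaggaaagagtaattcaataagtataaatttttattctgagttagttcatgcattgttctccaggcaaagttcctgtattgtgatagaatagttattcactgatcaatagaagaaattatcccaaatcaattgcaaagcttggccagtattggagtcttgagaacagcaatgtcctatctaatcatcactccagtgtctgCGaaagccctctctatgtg

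These sequences hold 15 CpG in Btbd3, 6 in Gucy1b1, 2 in Asic5, 22 in Chmp2b and 2 in Vmn1r179. Over all 77 annotated promoters of 70 protein-coding genes in the morula-advanced bins the median was 6 CpG, against 15 over the 18950 promoters in all bins in use. The observed over expected CpG ratio had a median of 0.396 in the morula-advanced bins and 0.615 over all promoters. A ratio of at least 0.6 was found in 21 of the 77 promoters (27.3%) and in 51.4% of all promoters. The TATA box letters TATAAA, searched on both strands, were in 19.5% of the 77 promoters and 11.9% of all promoters. The letters CCAAT were in 44.2% of the 77 and 37.5% of all. The GC box letters GGGCGG, which contain a CpG, were in 26% of the 77 and 49.1% of all. A match of letters is a description of the sequence and not a binding site. When the bins in use were ranked by their share in 4-cell siCont cells and cut into 5 classes of equal size, the median ratio over all promoters was 0.215 in the latest class and 0.708 in the earliest. Promoters of morula-advanced bins had medians of 0.164 (30 promoters) in the latest class, 0.581 (15), where all promoters had 0.497, in the next, and 0.415 (24), where all had 0.578, in the middle class. In the next class they had 0.481 (6), where all had 0.664, and in the earliest 0.769 (2). Within classes the direction was thus mixed.

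In the morula the chosen bins were late in control cells and intermediate in siRif1 cells. Their median replicated share was 42.2% in siRif1 cells (5th to 95th percentile 28.9 to 66.7%), against 18.2% in siCont cells (4.55 to 40.9%). The medians over all bins in use were 51.1% and 54.5%. At the 8-cell stage the same bins had medians of 28% in siRif1 and 33.3% in siCont, where all bins had 42.9% and 51.7%. At the 4-cell stage they had medians of 43.1% in siRif1 and 40.8% in siCont, where all bins had 50.98% and 44.9%. The siCont morula group thus stands apart as the lowest of the 6 groups in these bins, and the siRif1 morula group lies near the 4-cell groups. In siCont morulae, 179 morula-advanced bins (24.6%) were replicated in under 10% of cells. No bin of the set was so in siRif1 morulae, but the morula limit of the rule excludes such a bin. The absence is therefore not a result. A share above 50% was reached by 199 bins of the set in siRif1 and 9 in siCont morulae, a gap that the rule favours. Over all bins in use both morula medians were above 50%.

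**Figure D1:**
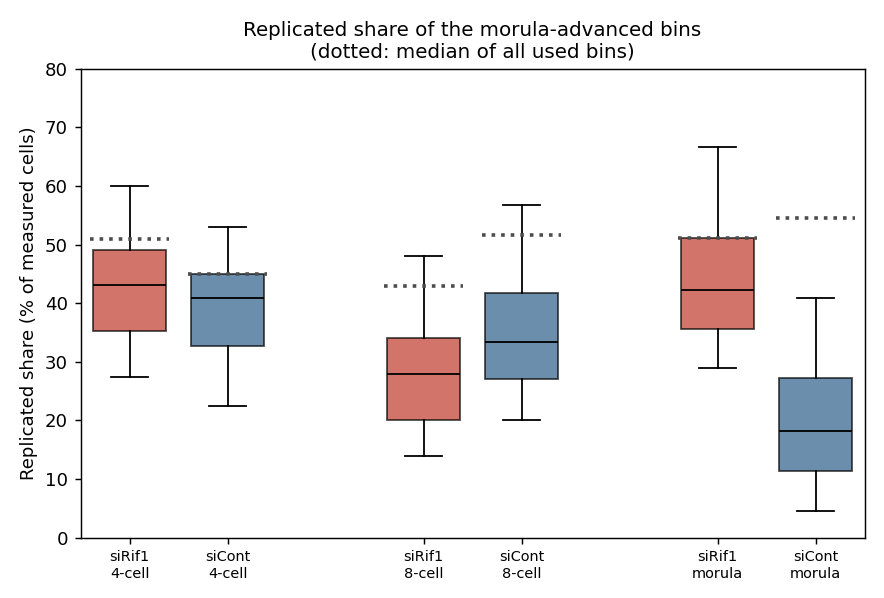
Replicated share (percent of measured cells) of the 728 morula-advanced bins in siRif1 and siCont cells at each stage. Boxes show median and quartiles, whiskers the 5th to 95th percentiles over bins, and dotted lines the median of all bins in use. The siCont morula box, with a median of 18.2%, is the lowest of the 6.

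The course over stages differed between treatments in these bins. Centred shares, which are relative to each group's mean, had medians of -7.32 points at the 4-cell, -15 points at the 8-cell and -7.75 points at the morula stage in siRif1. In siCont they were -5.73, -15.9 and -31.2 points. The step from the 4-cell to the 8-cell stage was downward in 560 bins in siRif1 (76.9%, against 48.6% of all bins in use) and in 563 bins in siCont (77.3%, against 46.3% of all bins). The step from the 8-cell stage to the morula was downward in 113 bins in siRif1 (15.5%, against 53% of all bins) and in 706 bins in siCont (97%, against 50.3% of all bins). The rule favours this difference in the last step, since it asks for a gap between treatments in the morula and allows little gap before. The earlier step, from the 4-cell to the 8-cell stage, was of like size in both treatments, with medians of -5.97 points in siRif1 and -7.27 points in siCont. This likeness is not free of the rule either, since the rule limits the 8-cell shift.

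The morula shifts of the chosen bins ran from 20.0 to 46.2 points with a median of 23.4 points. Of the bins, 470 (64.6%) had shifts under 25 points and 73 (10.03%) had 30 points or more. Over all bins in use, 6.41% had a morula shift of at least 20 points and 63.7% an 8-cell shift of at most 5 points. The 3 chosen bins nearest to the morula limit had shifts of 20.0, 20.1 and 20.1 points, and the 3 bins just below it had 19.9 points each. The 8-cell shifts of the set ran from -20.8 to 4.96 points with a median of 0.677 points, and 597 bins (82%) lay between -5 and 5 points. An 8-cell shift of -10 points or less was seen in 36 of the chosen bins (4.95%), where 21.1% of all bins had one. The 3 chosen bins nearest to the 8-cell limit had shifts of 4.96, 4.96 and 4.93 points, and the 3 just outside it 5.13, 5.18 and 5.18 points.

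**Figure D2:**
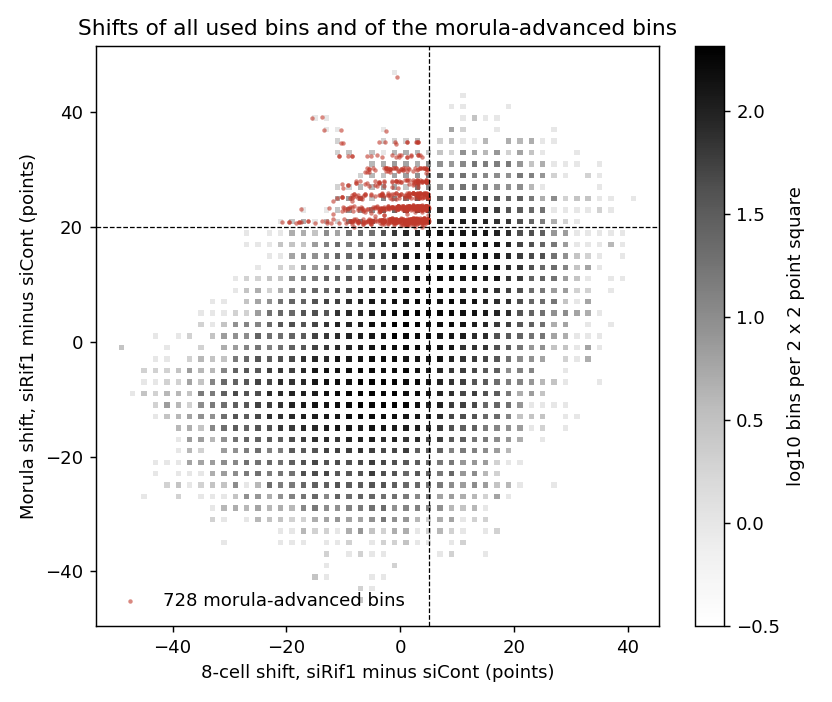
Shift at the 8-cell stage (x axis) against shift at the morula stage (y axis), both siRif1 minus siCont in percentage points, for all bins in use (grey squares, log10 count of bins per square) and the 728 morula-advanced bins (red). Dashed lines are the limits of 20 and 5 points; the bins press against both limits rather than forming a cloud of their own.

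Single bins of the set should be read with their counting error. The binomial SD of a shift had a median over these bins of 9.34 points at the morula stage, so that the limit of 20 points was 2.14 such SDs. For the 8-cell stage it was 8.75 points, and an 8-cell shift of at most 5 points therefore does not separate a bin from one with a moderate positive shift. A morula shift of -20 points or less was found in 5.6% of all bins, and 2.34% met the mirror image of the rule (1075 bins). The same limits set on the 4-cell in place of the morula shift were met by 401 bins (0.871%). A 4-cell shift of at least 20 points occurred in 1.36% of bins. The median counting error over all bins in use was 9.76 points at the 4-cell stage and 9.74 points at the morula stage. Counting error leaves out the spread between embryos or batches, which could not be measured and may differ by stage.

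The 4-cell stage, which the rule did not use, showed no advance of these bins in siRif1 as a group. Their median 4-cell shift was -1.59 points (quartiles -7.40 and 4.45), against -0.0336 points over all bins. A positive 4-cell shift was seen in 319 of the 728 bins (43.8%), where 49.8% of all bins had one. Shifts of at least 10 points were found in 81 bins (11.1%, against 13.8% of all bins) and shifts of -10 points or less in 85 bins (11.7%, against 12.9%). The SD of 4-cell shifts within the set was 8.41 points, less than the median counting error of 9.79 points for a single bin of the set. Over all bins in use the SD of 4-cell shifts, 8.995 points, was also below their median counting error of 9.76 points. The binomial SD was thus larger than the whole spread of 4-cell shifts. It therefore cannot decide which single 4-cell shifts of the set lie within error. The largest reached 26.7 points, and 7 bins had 20 points or more, where 1.36% of all bins did. A domain of 5 chosen bins on chromosome 5 from 126.3 to 126.6 Mb, without protein-coding genes and picked out after its values were seen, had a mean 4-cell shift of 24.2 points. Its mean 4-cell share was 50.98% in siRif1 and 22.9% in siCont, and its mean morula share 63.1% in siRif1 and 39.5% in siCont.

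By the timing of 4-cell control cells the chosen bins were late to middle. Of the 728, 231 (31.7%) lay in the latest of the 5 classes by 4-cell siCont share, 215 (29.5%) in the next and 190 (26.1%) in the middle class. The 2 earlier classes held 78 bins (10.7%) and 14 bins (1.92%). The latest class reached up to 34.7% of 4-cell siCont cells, and the middle class spanned 42.9 to 48.98%. Within each class the median 4-cell shift of the chosen bins was below that of all bins of the class. In the latest class it was 0.927 points for the chosen bins and 2.65 points for all, and in the middle class -3.64 and 0.126 points. In the earliest class, with 14 chosen bins, it was -10.2 and -4.44 points. The classes were made from the same siCont cells that enter the 4-cell shift, and these differences were not tested.

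The values of single cells describe how the morula gap, which the rule fixed, was spread over the cells, and are no evidence for it. Among cells with 20 to 80% of their other bins replicated, the percent of morula-advanced bins replicated minus that of the cell's other bins had a median of -4.81 points in 43 siRif1 morula cells, with a range of -30.7 to 16.3 points. In 42 siCont morula cells the median was -32.1 points, with a range of -48.4 to -12.1 points. The difference was below 0 in 28 of the 43 siRif1 cells and in 42 of the 42 siCont cells. The ranges overlap between -30.7 and -12.1 points. The 8-cell medians were -15.4 points in 47 siRif1 cells and -16.7 points in 54 siCont cells. The 4-cell medians were -8.77 points in 47 siRif1 cells and -6.49 points in 39 siCont cells.

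**Figure D3:**
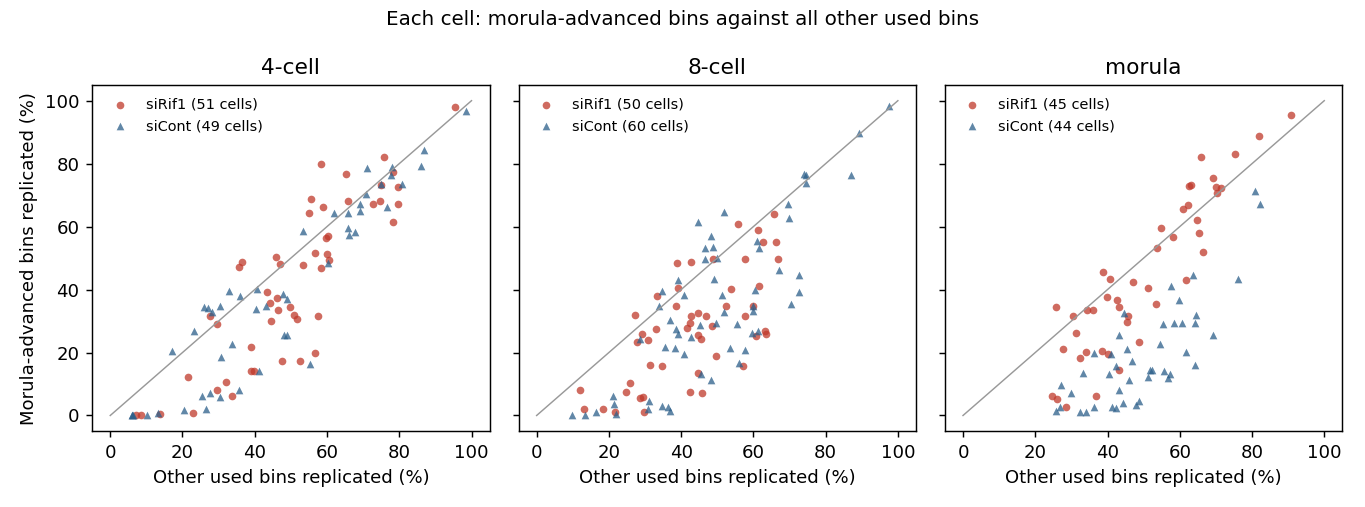
Percent of the morula-advanced bins replicated (y axis) against percent of all other used bins replicated (x axis) in each cell, with siRif1 cells as red circles and siCont cells as blue triangles, 1 panel per stage. The treatments intermingle at the 4-cell and 8-cell stages, while siCont morula cells lie below the diagonal and mostly below the siRif1 cells.

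Split by position in S phase, the same morula cells, whose gap chose the bins, gave the following levels. In cells with 20 to 40% of other bins replicated, the morula-advanced bins were replicated to a median of 21.2% in 15 siRif1 cells and 2.75% in 9 siCont cells. In cells with 40 to 60% the medians were 35.9% in 14 siRif1 cells and 14.4% in 25 siCont cells. In cells with 60 to 80% they were 71.6% in 14 siRif1 cells (range 42.99 to 83.1%) and 29.4% in 8 siCont cells (range 15.9 to 44.6%). Each group had 2 cells above 80%, with medians of 92.2% in siRif1 and 69.2% in siCont. In the class of 60 to 80%, the difference between the morula-advanced and the other bins of a cell had a median of 3.62 points in siRif1 and -34.0 points in siCont morula cells.

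At the earlier stages the same classes of cells gave smaller gaps. Between 60 and 80% the 4-cell medians were 67.99% in 13 siRif1 cells and 65.6% in 14 siCont cells. The 8-cell medians in that class were 49.6% in 9 siRif1 cells and 53.3% in 13 siCont cells. Between 40 and 60% they were 38.2% in 22 siRif1 and 34.3% in 10 siCont cells of the 4-cell stage, and 31.5% in 21 siRif1 and 33.04% in 24 siCont cells of the 8-cell stage. Between 20 and 40% the 4-cell medians were 14.2% in 12 siRif1 cells and 22.8% in 15 siCont cells, and the 8-cell medians 23.5% in 17 siRif1 cells and 21.4% in 17 siCont cells.

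The bins lay in 204 domains, a domain being a run of chosen bins on 1 chromosome with no more than 2 other bins between neighbours. Of these, 74 were single bins and 54 held 5 or more chosen bins. The 54 larger domains held 445 of the 728 bins (61.1%) and lay on 17 autosomes. Many domains were not islands. A bin with a morula shift of at least 20 points and an 8-cell shift above 5 points lay within or no more than 2 bins from 112 of the 204 domains (54.9%), and from 37 of the 54 larger ones. The 8-cell limit therefore often cut through a wider region of morula advance.

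**Figure D4:**
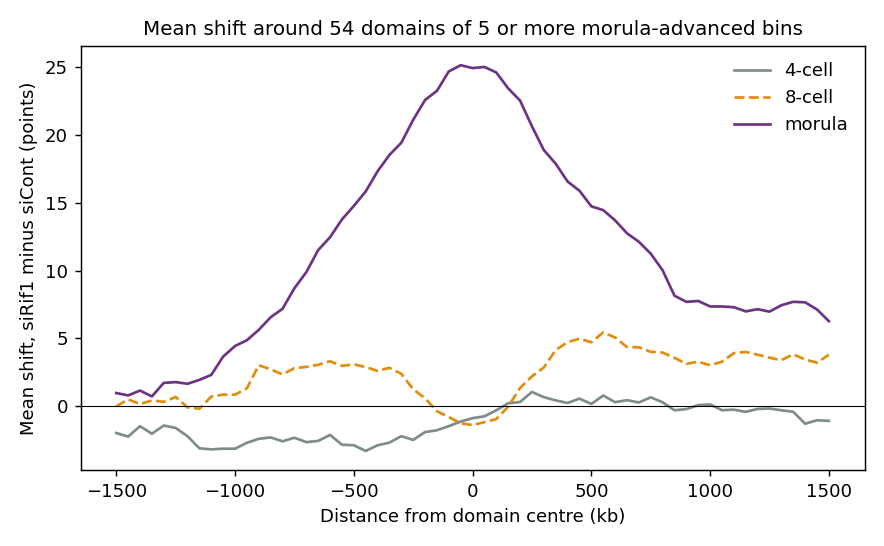
Mean shift (siRif1 minus siCont, percentage points) by distance from the centre of the 54 domains of 5 or more morula-advanced bins, for the 4-cell, 8-cell and morula stages. The morula shift peaks near 25 points at the centre and falls off over about 1 Mb to each side, while the 8-cell shift dips below 0 at the centre and is positive on both flanks.

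Around the 54 larger domains the mean morula shift was 24.9 points at the centre, 14.7 points at 500 kb to either side, and 4.44 and 7.35 points at 1000 kb before and after it. The 8-cell shift was -1.38 points at the centre and 3.09 and 4.71 points at 500 kb before and after it. The rule fixes low 8-cell and high morula values at the centre, and the flanks are not free of it. The longest domains reach to 500 kb from their centre, and bins beyond a domain are neighbours in the same cells. The 4-cell shift was -0.869 points at the centre and -2.86 and 0.179 points at those flanks.

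Bins were unevenly spread over chromosomes. Chromosome 8 had the highest density, with 85 of its 2462 used bins in the set (3.45%), followed by chromosome 7 (67 bins, 2.70%) and chromosome 1 (101 bins, 2.68%). The lowest densities were on chromosome 17 (7 bins, 0.4%) and chromosome 10 (17 bins, 0.681%). Since bins of a domain are not separate events, these densities rest on few domains per chromosome. The first 10 Mb of the chromosomes, next to the centromere, held 30 of the bins (4.12%, against 5.12% of all bins), and the last 10 Mb held 29 (3.98%, against 7.65%).

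The longest domain, on chromosome 8 from 102.6 to 103.8 Mb, held 22 chosen bins and the whole of Cdh11, which encodes a cadherin of mesenchymal cells. A domain was counted as replicated in a cell when over 50% of its measured chosen bins were. In the morula this was so in 18 of 45 siRif1 cells (40%, exact 95% interval 25.7 to 55.7%) and 4 of 44 siCont cells (9.09%, 2.53 to 21.7%). The 8-cell counts were 13 of 50 siRif1 and 17 of 60 siCont cells, and the 4-cell counts 20 of 51 siRif1 and 13 of 49 siCont cells. The rule fixed the morula gap and limited the 8-cell one, so that only the 4-cell counts of these domains are free of it, and there the intervals (25.8 to 53.9% in siRif1 and 14.9 to 41.1% in siCont) overlap. The bin at the midpoint of Cdh11 had a morula shift of 34.9 points, an 8-cell shift of 2.85 points and a 4-cell shift of -5.28 points.

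The domain on chromosome 2 from 137.45 to 138.5 Mb held 21 chosen bins and Btbd3, a gene with a role in orienting dendrites in mouse cortex. It was replicated in 21 of 45 siRif1 and 6 of 44 siCont morula cells (46.7%, 31.7 to 62.1%, and 13.6%, 5.17 to 27.4%). In 8-cell embryos the order was the other way, with 10 of 50 siRif1 cells (20%) and 22 of 60 siCont cells (36.7%), a mean shift of -7.52 points over its bins. Its 4-cell counts were 26 of 51 siRif1 and 21 of 49 siCont cells. The promoter of Btbd3 is the first of those printed above.

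The third domain, on chromosome 8 from 15.35 to 16.2 Mb, held 17 chosen bins and part of Csmd1, a very long gene for a complement-regulating membrane protein that extends beyond the domain. Its morula counts were 23 of 45 siRif1 and 8 of 44 siCont cells (51.1% and 18.2%). The counts were 14 of 50 siRif1 and 22 of 60 siCont cells at the 8-cell stage, and 21 of 51 siRif1 and 14 of 49 siCont cells at the 4-cell stage. As in the first domain, the 4-cell intervals overlap.

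The next domains in length held no protein-coding gene. That on chromosome 1 from 103.05 to 103.9 Mb was replicated in 17 of 45 siRif1 and 3 of 44 siCont morula cells (37.8% and 6.82%). That on chromosome 7 from 52.5 to 53.25 Mb was replicated in 15 of 43 siRif1 and 4 of 44 siCont morula cells (34.9%, 21.01 to 50.9%, and 9.09%, 2.53 to 21.7%). In 8-cell embryos the chromosome 1 domain was replicated in 9 of 50 siRif1 and 14 of 60 siCont cells, and the chromosome 7 domain in 8 of 50 siRif1 and 17 of 59 siCont cells. At the 4-cell stage the counts were 16 of 51 siRif1 and 16 of 49 siCont cells on chromosome 1, and 15 of 51 siRif1 and 13 of 49 siCont cells on chromosome 7.

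The most gene-rich of the 10 longest domains was that on chromosome 3 from 81.9 to 82.6 Mb, which overlapped 7 protein-coding genes. They include Gucy1a1 and Gucy1b1, the subunits of the nitric oxide receptor guanylate cyclase, and Asic5, a member of the acid-sensing ion channel family. The domain was replicated in 25 of 45 siRif1 and 10 of 44 siCont morula cells (55.6%, 39.997 to 70.4%, and 22.7%, 11.5 to 37.8%). The counts were 17 of 50 siRif1 and 25 of 60 siCont cells at the 8-cell stage, and 25 of 51 siRif1 and 23 of 49 siCont cells at the 4-cell stage. The bin of Gucy1a1 had a morula shift of 32.2 points and that of Asic5 one of 25.6 points. The promoters printed from this domain, of Gucy1b1 and Asic5, hold 6 and 2 CpG, whereas those of Map9 hold 16 and 19 and those of Gucy1a1 15 and 14.

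A domain on chromosome 7 from 36.7 to 37.35 Mb overlapped Zfp536 and Tshz3, which encode zinc finger transcription factors. Of morula cells, 24 of 43 siRif1 and 15 of 44 siCont cells had replicated it (55.8% and 34.1%). A domain on chromosome 16 from 65.55 to 66.4 Mb held Vgll3, a cofactor of TEAD transcription factors, and overlapped Chmp2b, a subunit of the ESCRT-III membrane remodelling complex. The morula counts were 13 of 45 siRif1 and 2 of 42 siCont cells (28.9% and 4.76%). The domains on chromosome 13 from 31 to 31.55 Mb and on chromosome 15 from 69.35 to 69.95 Mb held no protein-coding gene. They were replicated in 32 of 45 siRif1 and 19 of 44 siCont, and in 20 of 45 siRif1 and 9 of 44 siCont morula cells.

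**Figure D5:**
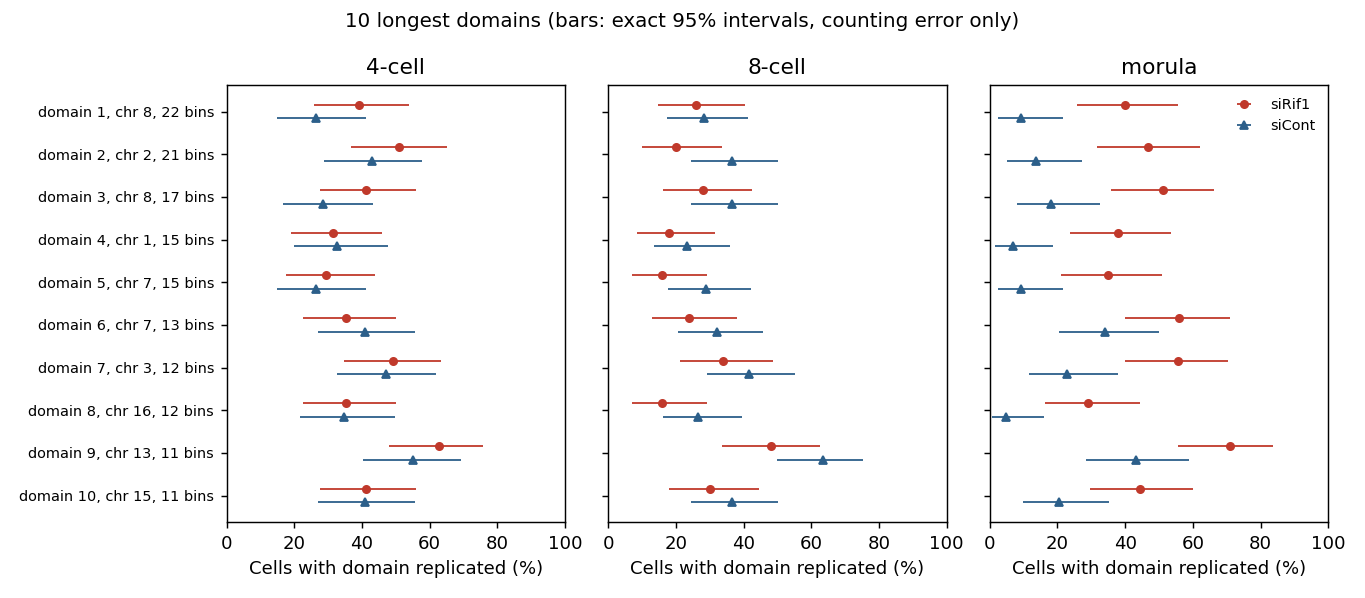
Percent of cells in which each of the 10 longest domains was replicated (x axis), at the 4-cell, 8-cell and morula stages, in siRif1 (red circles) and siCont cells (blue triangles), with exact 95% intervals for counting error. In the morula siRif1 is to the right of siCont in 10 of 10 domains, and at the 8-cell stage to the left in 10 of 10; shares are not centred, and the siRif1 mean over all bins was lower at the 8-cell stage (43% against 49.2%).

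Over these 10 domains the morula difference, siRif1 minus siCont, ran from 21.7 to 33.03 points. The 8-cell differences ran from -16.7 to -2.33 points before centring. Both ranges follow in part from the rule, and after centring the mean 8-cell shift was positive in the domains of chromosome 1 (1.76 points) and chromosome 15 (1.88 points). At the 4-cell stage they ran from -5.52 to 12.7 points, positive in 8 of 10, with intervals apart in 0 of 10. The groups' mean shares should be kept in mind here. The mean share of siRif1 lay below that of siCont at the 8-cell stage and above it at the 4-cell stage.

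The single bins with the highest morula shifts lay partly outside the long domains. The highest, on chromosome 7 from 23900001 to 23950000, holds Vmn1r179, a pheromone receptor gene of the vomeronasal organ. It was replicated in 26 of 43 siRif1 morula cells (60.5%, 44.4 to 75.02%) and in 6 of 44 siCont morula cells (13.6%, 5.17 to 27.4%), a shift of 46.2 points. At the 8-cell stage it was replicated in 22 of 50 siRif1 and 30 of 59 siCont cells (shift -0.667 points), and at the 4-cell stage in 18 of 51 siRif1 and 22 of 49 siCont cells (shift -13.5 points). Next came a bin without protein-coding genes in the chromosome 2 domain of Btbd3, at 39.2 points, with 23 of 45 siRif1 and 5 of 44 siCont morula cells.

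A bin on chromosome 14 from 19400001 to 19450000 held no protein-coding gene and was highest in the morula in both treatments, whereas the siCont step from the 8-cell stage to the morula was downward in 706 of the 728 bins. It was replicated in 26 of 45 siRif1 morula cells (57.8%) and 9 of 44 siCont morula cells (20.5%), a shift of 36.7 points. At the 8-cell stage it was replicated in 4 of 50 siRif1 cells (8%) and 10 of 60 siCont cells (16.7%), and at the 4-cell stage in 6 of 51 siRif1 cells (11.8%) and 6 of 49 siCont cells (12.2%). The domain of 5 chosen bins around it averaged 56.4% in siRif1 and 22.3% in siCont morulae, and holds predicted genes that include Gm2244 and Gm5458. That domain was looked up after its values were seen, and whether near-identical copies share reads with it was not tested. The fifth bin, on chromosome 11 from 37600001 to 37650000 and without protein-coding genes, was replicated in 19 of 45 siRif1 and 3 of 44 siCont morula cells (42.2% and 6.82%).

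Few genes lay in the set. Of 19406 protein-coding genes with their midpoint in a used bin, 90 had it in a morula-advanced bin (0.464%, while the bins were 1.58% of all). That is 2.47 genes per Mb, against 8.43 over all bins in use. A gene body overlapped 275 of the 728 bins (37.8%), against 58.2% of all bins. The 90 genes had a median length of 28.3 kb and all genes in use one of 18.3 kb. Compared within classes of 4-cell siCont timing, the set was still sparser in genes. In the latest class it had 3.38 genes per Mb against 6.14 for the class, and in the middle class 2.74 against 5.97. The difference was not tested, since neighbouring bins are not independent.

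Of 65 long genes of neuronal adhesion and synapses, 7 had their midpoint in the set (10.8%, against 0.464% of all genes), namely Dpp10, Fstl5, Cdh11, Pcdh15, Cntn1, Lsamp and Robo1. They lie in 7 separate bins. The list was chosen with earlier results of these data known, so its share is a description. All genes, with which it is compared, were not matched to it by length or timing. The median morula shift of all 65 was 14.2 points, against -8.04 points for all genes, and their median 8-cell shift was 8.51 points, against -7.49 points for all genes. A morula shift of at least 20 points was found for 17 of the 65, and only the 7 named also met the 8-cell limit. Of all 19406 genes, 222 had such a morula shift, and 90 of these met the 8-cell limit. Among genes with such a shift, the list's part in the set was thus like that of all genes. Dpp10, an auxiliary subunit of potassium channels, spans 1514 kb, and its values are those of the bin at its midpoint. That bin was replicated in 15 of 45 siRif1 and 4 of 44 siCont morula cells. The counts were 11 of 50 siRif1 and 15 of 60 siCont cells at the 8-cell stage, and 24 of 51 siRif1 and 22 of 49 siCont cells at the 4-cell stage. Of 17 common fragile site genes, 2 were in the set, Fhit and Lsamp, a neural adhesion gene that is also in the first list. The bin at the midpoint of Fhit, a gene of 1612 kb, had a morula shift of 23.4 points and an 8-cell shift of 4.85 points, just inside the limit. That bin was replicated in 21 of 45 siRif1 and 10 of 44 siCont morula cells.

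Chemosensory receptor genes gave the largest number of genes, but in few bins. Of 1019 olfactory receptor genes in use, 20 were in the set (1.96%, against 0.464% of all genes), and they lay in 11 bins of chromosomes 1 and 7. The 1019 genes lay in 536 bins, and 1.58% of all bins in use were in the set. Olfr417 and Olfr248 share 1 bin, replicated in 13 of 45 siRif1 and 2 of 44 siCont morula cells, with a shift of 23.8 points. In 8-cell embryos that bin was replicated in 7 of 50 siRif1 and 10 of 60 siCont cells and at the 4-cell stage in 12 of 51 siRif1 and 15 of 49 siCont cells. Of 187 vomeronasal receptor genes, 5 were in the set (2.67%), in 4 neighbouring bins of chromosome 7. Beside Vmn1r179 they include V1rd19, with 27 of 43 siRif1 and 12 of 44 siCont morula cells and a shift of 34.9 points. Both had negative 4-cell shifts, of -13.5 points for Vmn1r179 and -15.6 points for V1rd19, and so did the bin of Zfp180 beside them, at -11.6 points. Only 187 of 354 vomeronasal genes lay in used bins, so this list was measured in part. Those 187 genes lay in 148 bins. Counted in bins, 11 of 536 olfactory and 4 of 148 vomeronasal bins were in the set, above the 1.58% of all bins in use. Of the 13663 used bins with a gene midpoint, as all bins of these lists have, 75 were in the set, a smaller share than in either list. These differences were not tested.

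Other lists had few genes in the set. Of 130 potassium, sodium and calcium channel genes, Kcnt2 (shift 23.8 points) and Kcnv1 (21.3 points), both of potassium channels, were in it (1.54%). The bin at the midpoint of Kcnt2 was replicated in 13 of 45 siRif1 and 2 of 44 siCont morula cells. Of 350 Zfp genes, 2 were in it (0.571%). Zfp180 lies beside the vomeronasal genes of chromosome 7 (23.5 points), and Zfp37, on chromosome 4, had a morula shift of 21.1 points, an 8-cell shift of -16.2 points and a 4-cell shift of 11.1 points. Lists with 0 genes in the set were the 77 ribosomal protein genes, 39 origin licensing and fork genes, 25 pluripotency genes, 20 trophectoderm genes, 73 histone genes, 57 clustered protocadherin genes, 39 Hox genes, 33 ionotropic glutamate and GABA receptor genes, 71 cytochrome P450 genes and 42 serpin genes. At a share of 0.464% lists of these sizes would hold few or no genes in any case. The gene Rif1 itself, on chromosome 2, was outside the set, with shifts of 11.6 points at the 4-cell, -4.49 points at the 8-cell and -6.45 points at the morula stage.

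Bins that were advanced at the morula stage and also had an 8-cell shift above 5 points numbered 2223. In siCont cells the morula-advanced set was the earlier of both, with medians of 18.2% in the set and 11.4% in those bins at the morula stage, and 33.3% and 23.3% at the 8-cell stage, as the rule makes likely. On measures that the rule did not use, the 4-cell values lay close together, while gene density differed more. The median 4-cell shift was -1.59 points in the set and -0.568 points in those bins, and the median 4-cell siCont share was 40.8% in the set and 38.8% in those bins. Gene density was 2.47 per Mb in the set and 1.19 per Mb in those bins, and a gene body overlapped 37.8% of the set and 28.1% of those bins. The first 10 Mb of the chromosomes held 4.12% of the set (30 bins) and 1.44% of those bins (32 bins). The last 10 Mb held 3.98% of the set and 4.81% of those bins. These differences were not tested.

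State switches within a cell were also counted between neighbouring bins, in cells 20 to 80% replicated. At the 4-cell stage a switch fell between 2.02% of neighbouring pairs of the set in siRif1 and 1.96% in siCont, against 2.31% and 2.24% over all bins in use. In the morula the values were 1.74% in siRif1 and 1.21% in siCont, against 2.12% and 1.98% over all bins. The morula values follow in part from the choice of bins that are late in siCont.

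The size of the morula advance depended on the scale. When each bin was given its percentile rank within its group in place of a centred share, the 728 bins had a median morula shift of 19.1 rank points, and 318 of the 728 reached 20 rank points. On ranks the median 8-cell shift was -7.16 points. Applied to ranks, the rule chose 1469 bins, of which 273 were in the set. Those 1469 bins were not late in 4-cell siCont cells, with a median rank 9.69 points above the middle, and held 7.71 genes per Mb. The lateness and low gene density given above thus hold for the set chosen on centred shares.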

How the data were processed

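The data were states of single blastomeres. Each of the 6 deposited tables holds 50-kb bins as lines and cells as columns, with 0, 1 or NA; how the authors called the states, and the read depth of a cell, are not given in the sources used here. Build GRCm38, R 4.2.3, bedtools, Picard, SAMtools and Bowtie2 2.5.1 are named, without roles, in the submitters' processing notes. Of 416 labelled cells, 299 had a column and were used without a further filter. Cells were taken to have replicated a bin at 1, since mean shares of 1 were higher in bins with a gene midpoint in all 6 groups. Each group was 1 sample, so no test was run.

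Shares were computed with Python 3.11.15, numpy 2.4.6 and pandas 2.3.3 for bins with at least 10 measured cells in each group. Exact Clopper-Pearson intervals (95%) used scipy 1.17.1. The code for the shifts was checked on simulated data only for the mean size of a planted shift, and the domain code on a made-up run of bins. How often the rule would choose unchanged bins is not given here. Genes and promoters came from RefSeq tables of GRCm38.p6, genes being placed by midpoint. Named items were the 10 longest domains with up to 3 genes each, the 5 bins with the highest morula shift in separate domains, and up to 2 genes from each of 16 lists; other genes listed by name complete a count or were chosen after their values were seen. The bins and lists were chosen with earlier results of these data known. No genome was used here, so base composition of whole bins was not computed.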

Additional observations from a re-analysis of the deposited data

How the results depend on the processing

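No paired analysis was possible because the cell numbers in the titles only name cells and each group counts as 1 sample. Of 52 recomputed values, 32 stayed near the reported ones (counts, shares and densities within 1.5 times), 18 moved further and 2 changed sign. A minimum of 20 cells per bin and group left the same 46015 bins in use, so its values, which are among the 32, could not change. With the morula limit at 25 points the set had 258 bins in 80 domains (0.561% of bins), and at 15 points 1698 bins in 385 domains (3.69%). With the 8-cell limit at 0 points it had 333 bins in 104 domains (0.724%). Centring on the group median gave 1111 bins (2.41%), 479 of them shared with the reported set, and a median 4-cell shift of -3.28 points. Cells paired within 5 points of percent replicated gave a median 4-cell shift of -0.101 points and 893 bins, 437 of them shared. Cells between 20 and 80% replicated gave 754 bins, 561 of them shared. Percentile ranks gave 1469 bins in 336 domains (3.19%), with a median 4-cell shift of 2.08 rank points, a median 4-cell siCont rank 9.69 points above the middle and 7.71 genes per Mb. The 1469 bins chosen on ranks, 273 of them shared with the reported set, are thus neither late nor gene-poor. The cause was not tested. Counting genes by any overlap gave 4.09 genes per Mb, against 8.44 over all bins, and by transcription start, an alternative chosen after seeing the data, 1.92 against 6.72. Requiring every measured bin of a domain to be replicated took 23 of 60 domain shares outside their intervals. The number of cells limits single bins: most shifts of the set are near 2 counting SDs.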
